A study of Mus musculus with 45 samples.

Results

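Liver X receptor (LXR) targets and cholesterol efflux genes were followed in adipocytes across diet, genotype and time. The 9 genes were Abcg1, Abca1, Nr1h2, Nr1h3, Mylip, Lpcat3, Gramd1b, Pltp and Apoe, and every probe set annotated to one of them alone was taken. This gave 13 of the 45037 probe sets on the array, for 8 of the 9 genes. Nr1h2, which encodes LXRβ, had 0 probe sets under this rule and is not analysed here. The genes were chosen from earlier results on the diet differences of these same mice, so the diet differences below are a description and carry no test. Genotype and time were tested, but these comparisons share mice with the diet comparisons and are not independent of the choice of genes.

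LXRα (Nr1h3) and LXRβ (Nr1h2) are nuclear receptors that bind oxysterols, pair with a retinoid X receptor and switch on genes that move cholesterol out of the cell. ABCA1 passes cholesterol and phospholipid to lipid-poor apolipoprotein A-I, ABCG1 passes cholesterol to high-density lipoprotein particles, and apolipoprotein E carries lipid away from cells. Adipocytes hold a large store of free cholesterol, which makes these transporters of interest in fat.

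All 45 mice were C57BL/6 females that lacked ApoE (ApoE-/-), and diets began at 8 weeks of age. Dhet mice (D, 26 mice) were also heterozygous for deletions of the insulin receptor and of insulin receptor substrate 1 (IR+/- IRS1+/- ApoE-/-), while E mice (19 mice) carried only the ApoE deletion. D mice received a Western (high-fat) diet for 8 weeks (DW8, n = 5) or 16 weeks (DW16, n = 9), or chow (low-fat) for 8 weeks (DC8, n = 7) or 16 weeks (DC16, n = 5). E mice received the Western diet for 8 weeks (EW8, n = 6) or 16 weeks (EW16, n = 8), or chow for 16 weeks (EC16, n = 5), so that mice were 16 or 24 weeks old at the end. No E group on chow for 8 weeks is analysed here. Adipocytes came from parametrial and periovarian fat, with 1 Affymetrix array per mouse, and each value is a log2 RMA expression value.

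Of the adipocyte markers, 6 of 8 had a probe set, and Adipoq (mean 14.42) and Fabp4 (mean 14.59) lay at the top of the array. Macrophage markers were also present, with Csf1r at 11.60 and Cd14 at 11.66, whereas Itgam stood at 4.14, and the stromal genes Dcn (13.66) and Col3a1 (12.74) were high. Members such as Abca1 and Abcg1 are expressed by macrophages too, and in these bulk samples fewer cells of a type and less RNA per cell cannot be told apart. The arrays of 7 of the 9 DW16 mice and 3 of the 8 EW16 mice had a narrower range of values than the other 35 (95th percentile of 10.14 to 10.85 against 10.95 to 11.14, SD of 2.11 to 2.35 against 2.39 to 2.53). These 10 narrow-range arrays fell only in the groups on the Western diet for 16 weeks, so results that rest on them are given with and without them. Insr, one of the deleted genes, averaged 9.29 in DC16 and 10.17 in EC16 mice (difference -0.88, limma adjusted p = 0.157), and Irs1 averaged 11.03 in DC16 and 11.21 in EC16 mice (difference -0.18, limma adjusted p = 0.873). On the Western diet both were also lower in D mice by their means, by 0.16 to 1.03, with limma adjusted p of 0.152 or higher.

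Promoter sequences from RefSeq (GRCm38.p6) were held for 7 of the 9 genes, in 10 windows that ran from 250 bases before to 50 bases after a transcript start. No window was held for Abcg1 or Gramd1b, so neither was searched. The windows were searched on both strands for an LXR response element of the direct-repeat type, that is, the half-site GGTNA and, after 5 bases, the same half-site again. Of all 32851 windows of this length, 236 (0.718%) held it, and among the members only the window of Abca1 did. Its match lay 67 bases before the start on the opposite strand to the gene (chr4:53159948-53159962), and is shown in capitals in the window (chr4:53159846-53160145, minus strand). The window of Mylip (chr13:45389492-45389791, plus strand) is shown beside it because Mylip and Abca1 varied together from mouse to mouse; it held no match. A match in letters is a description and does not show that a receptor binds.
Abca1: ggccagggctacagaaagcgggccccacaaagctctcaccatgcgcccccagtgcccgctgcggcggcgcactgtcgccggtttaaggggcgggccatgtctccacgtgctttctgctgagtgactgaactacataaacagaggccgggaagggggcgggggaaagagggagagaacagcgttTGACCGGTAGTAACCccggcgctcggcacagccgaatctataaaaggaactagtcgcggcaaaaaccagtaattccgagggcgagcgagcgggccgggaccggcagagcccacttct
Mylip: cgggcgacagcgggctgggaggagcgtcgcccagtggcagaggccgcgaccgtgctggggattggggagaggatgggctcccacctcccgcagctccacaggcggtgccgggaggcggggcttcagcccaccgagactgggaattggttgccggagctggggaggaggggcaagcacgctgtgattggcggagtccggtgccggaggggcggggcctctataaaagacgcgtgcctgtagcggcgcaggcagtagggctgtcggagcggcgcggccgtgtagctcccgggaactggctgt
The E-box CACGTG was in 7.15% of all windows and, among the members, in that of Abca1 only. The GC box GGGCGG was in 35.66% of all windows and in 4 of the 10 member windows (Abca1, Pltp, Lpcat3 and Mylip). Neither overlapped the LXR element in the Abca1 window.

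Abcg1 (chr17:31057694-31117984), the transporter that loads cholesterol onto high-density lipoprotein, was higher on the Western diet in every comparison of its leading probe set, 1423570_at (the leading probe set is the one with the highest mean of a gene). DW8 mice had values of 12.00, 11.46, 11.73, 11.21 and 11.18, against a lowest of 9.51, a median of 9.88 and a highest of 10.75 in the 7 DC8 mice. All DW8 values thus lay above all DC8 values, and the difference was 1.55 ± 0.20 (log2, SE), or 2.93-fold. In D mice at 16 weeks, DW16 values ran from 10.34 through a median of 10.77 to 11.09, against 9.65, 9.60, 9.76, 9.56 and 9.90 in DC16 mice. Again the groups did not overlap, with a difference of 1.06 ± 0.11 (SE), or 2.09-fold, and 1.24 with only the 2 DW16 mice outside the narrow-range arrays. In E mice, EW16 values ran from 10.61 through a median of 11.17 to 11.61, against 9.75, 10.31, 9.63, 9.72 and 10.31 in EC16 mice. These groups did not overlap either, and differed by 1.20 ± 0.19 (SE), or 2.30-fold, and by 1.41 without the narrow-range arrays. EW8 mice, which have no chow group of their own time, had a lowest of 11.00, a median of 11.45 and a highest of 12.13. In order of mean level the groups were DW8 (11.51 ± 0.35), EW8 (11.50 ± 0.44), EW16 (11.15 ± 0.36), DW16 (10.76 ± 0.22), DC8 (9.96 ± 0.42), EC16 (9.94 ± 0.34) and DC16 (9.69 ± 0.14; SD), and each group's range overlapped that of the next in this order.

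The second Abcg1 probe set, 1455221_at, had a lower mean level (8.08 against 10.68 over all mice) and gave smaller diet differences. DW8 mice had 9.43, 9.08, 9.19, 8.50 and 8.46, against 7.65, 7.76 and 8.60 as the lowest, median and highest of DC8 mice, a difference of 1.03 ± 0.19 (SE) with overlapping groups. DW16 mice ran from 6.92 through 7.64 to 8.28, against 7.88, 7.73, 7.06, 7.58 and 7.41 in DC16 mice. That difference was 0.06 ± 0.21 (SE), and 0.66 without the narrow-range arrays, whose 7 mice lay between 6.92 and 7.83 while the other DW16 mice had 8.28 and 8.11. EW16 mice were higher than EC16 mice by 0.48 ± 0.19 (SE), and by 0.73 without the narrow-range arrays. The probe sets of Abcg1 therefore gave different sizes for the diet difference at 16 weeks, with the same sign.

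Abca1 (chr4:53030789-53159988), the transporter that loads apolipoprotein A-I, stood at a mean of 12.93 with 1421840_at, above 99.2% of probe sets. DW8 mice had 13.32, 13.20, 13.55, 13.36 and 13.31, against a lowest of 12.65, a median of 12.89 and a highest of 13.01 in DC8 mice. No DW8 value reached down to the DC8 range, and the difference was 0.50 ± 0.08 (SE), or 1.41-fold, smaller than that of Abcg1 in the same mice. At 16 weeks in D mice the sign depended on the mice that were included, on the scaling and on the probe set. DW16 mice ran from 11.92 through 12.66 to 13.18, against 12.92, 12.99, 12.81, 12.61 and 13.02 in DC16 mice, a difference of -0.31 ± 0.19 (SE), but 0.05 without the narrow-range arrays and 0.10 after a further quantile normalization. EW16 mice ran from 11.90 through 13.35 to 13.44, against 12.84, 12.98, 12.90, 12.87 and 13.10 in EC16 mice, a difference of 0.08 ± 0.24 (SE). The 3 EW16 mice on narrow-range arrays had 12.86, 12.44 and 11.90 and the other 5 had 13.34, 13.43, 13.38, 13.44 and 13.37, all above every EC16 mouse, so that the difference without the narrow-range arrays was 0.45. The dimmer Abca1 probe sets were also higher in DW8 than DC8 mice, by 0.74 ± 0.14 (1421839_at) and 0.39 ± 0.15 (1450392_at, SE). In DW16 minus DC16 they differed by 0.23 ± 0.17 and -0.36 ± 0.25 (SE), and by 0.02 and -0.21 without the narrow-range arrays. In EW16 minus EC16 they differed by 0.50 ± 0.20 and 0.09 ± 0.31 (SE), and by 0.81 and 0.61 without those arrays. Of the macrophage markers, 12 of 12 had a probe set, and their mean was 8.82 to 8.88 in DW8 and 8.47 to 9.04 in DC8 mice, so that the DW8 range lay inside the DC8 range. At 16 weeks it was 8.04 to 8.94 in DW16 and 8.22 to 9.06 in DC16 mice, and 8.10 to 9.43 in EW16 and 8.58 to 9.08 in EC16 mice.

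**Figure D1:**
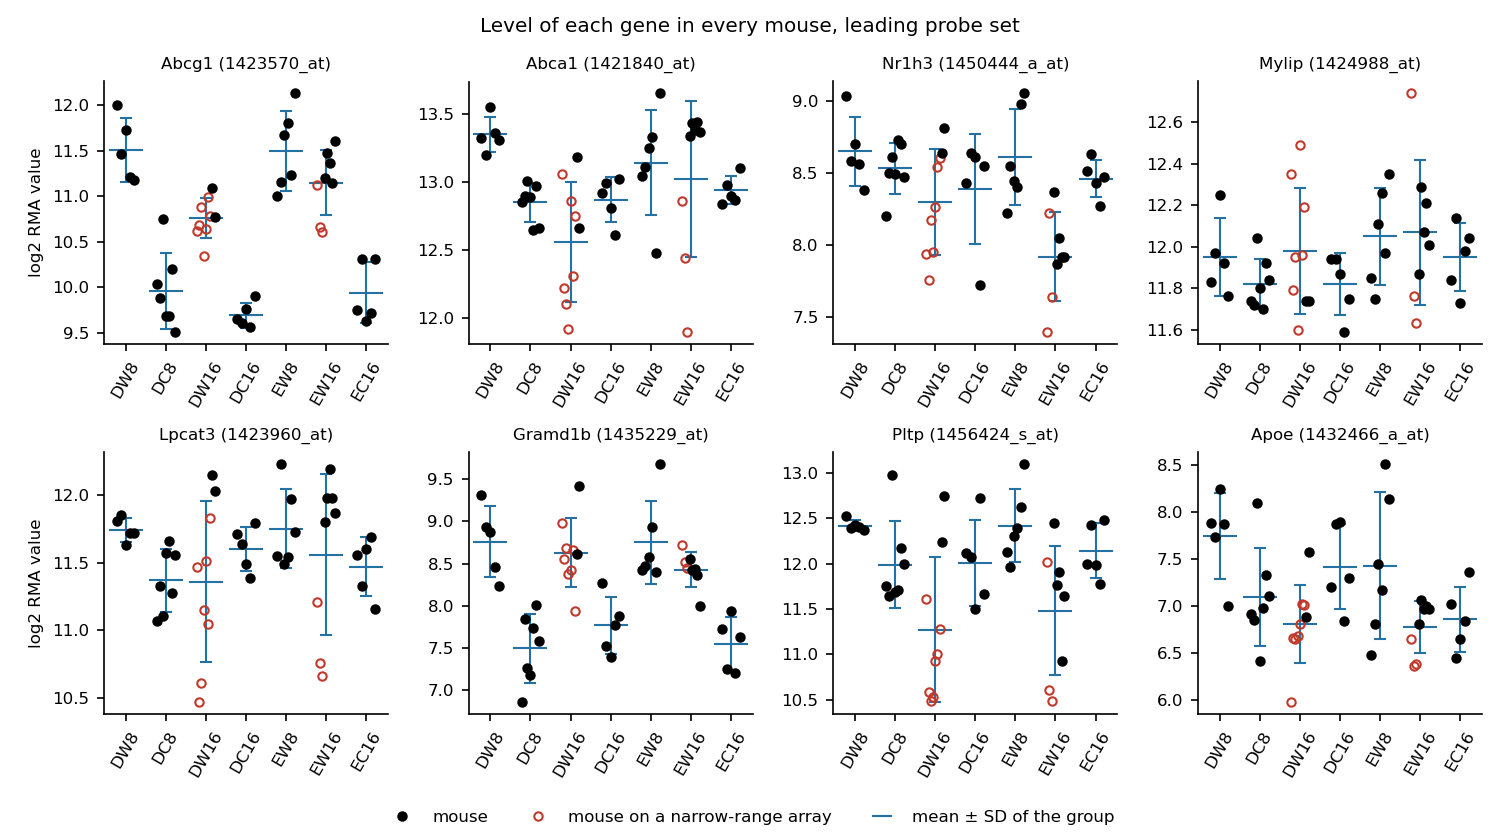
Log2 RMA value (y axis) of the leading probe set of each of the 8 genes in every mouse, by group along the x axis, with filled points for mice, open red circles for mice on narrow-range arrays, and blue marks for the mean ± SD. Western and chow groups separate for Abcg1 at both times, while the narrow-range arrays hold the lowest values of Lpcat3, the lowest DW16 values of Pltp, and the lowest values of Abca1.

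Gramd1b (chr9:40293233-40533614) encodes Aster-B, a protein that moves cholesterol from the plasma membrane to the endoplasmic reticulum. With 1435229_at, DW8 mice had 9.31, 8.93, 8.88, 8.46 and 8.24, against a lowest of 6.86, a median of 7.58 and a highest of 8.01 in DC8 mice. The groups did not overlap and differed by 1.26 ± 0.21 (SE), or 2.40-fold. DW16 mice ran from 7.94 through 8.61 to 9.42, against 8.27, 7.53, 7.39, 7.77 and 7.88 in DC16 mice, a difference of 0.86 ± 0.20 (SE) with 1 DC16 mouse inside the DW16 range. EW16 mice ran from 8.00 through 8.44 to 8.72, against 7.73, 7.25, 7.94, 7.21 and 7.63 in EC16 mice, a difference of 0.88 ± 0.14 (SE) without overlap. The difference without the narrow-range arrays was 1.25 in D mice, with only 2 DW16 mice left, and 0.80 in E mice. The other probe set, 1435402_at, gave 1.51 ± 0.25, 0.76 ± 0.16 and 1.26 ± 0.23 (SE) for DW8 minus DC8, DW16 minus DC16 and EW16 minus EC16, in the same direction each time, and without the narrow-range arrays 0.76 in D and 1.30 in E mice at 16 weeks. For this probe set the DW16 mice lay between 8.07 and 8.65, above all DC16 mice, whose highest was 8.00.

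Pltp (chr2:164839518-164857708) encodes the phospholipid transfer protein, which remodels lipoproteins in plasma. DW8 mice had a narrow spread of 12.52, 12.39, 12.43, 12.40 and 12.37 with 1456424_s_at, against 11.64, 11.75 and 12.98 as the lowest, median and highest of DC8 mice. DC8 mouse 3 alone exceeded the DW8 mice, and the difference was 0.43 ± 0.19 (SE). At 16 weeks the difference had the other sign, -0.75 ± 0.35 in DW16 minus DC16 and -0.66 ± 0.31 (SE) in EW16 minus EC16. After a further quantile normalization these were -0.30 and -0.40. In D mice the sign rested on the narrow-range arrays: those 7 DW16 mice lay between 10.48 and 11.61, the other DW16 mice had 12.24 and 12.75, and DC16 mice had 12.12, 12.07, 11.50, 12.72 and 11.66. Without the narrow-range arrays the difference was 0.48 in D mice but -0.40 in E mice, where the 5 remaining EW16 mice had 12.45, 11.76, 11.91, 10.93 and 11.64 against 12.00, 12.43, 11.99, 11.78 and 12.48 in EC16 mice. The other probe set, 1417963_at, followed the same signs, with 0.65 ± 0.15 in DW8 minus DC8 and -0.92 ± 0.41 (SE) in DW16 minus DC16, and in EW16 mice a level 0.499 times that of EC16 mice. In DW8 minus DC8, where Pltp was higher, the 5 mesothelial markers had a median difference of -0.42, with 1 of 5 above 0. At 16 weeks these markers moved alongside Pltp. The mean of all 5 was 5.73 to 6.77 in the 7 DW16 mice on narrow-range arrays. It was 7.28 and 7.91 in the other DW16 mice, and 6.53 to 8.06 in DC16 mice. In E mice it was 6.13 to 7.44 in EW16 and 7.45 to 8.47 in EC16 mice, and 3 of the 5, by limma (Upk3b, Wt1 and Krt19) were lower in EW16 mice (adjusted p = 0.00533, 0.00897 and 0.00792). In DW16 minus DC16 the mesothelial gene Lrrn4 fell by 1.60, the macrophage gene Lyz2 by 1.17 and the endothelial gene Pecam1 by 0.94 (limma adjusted p = 0.00683, 0.00993 and 0.00824). Each was the only marker of its list to pass, of 5 mesothelial, 12 macrophage and 6 endothelial genes. The macrophage markers had a median difference of -0.13, with 3 of 12 above 0. Of 5 measured lymphocyte markers, Ighm fell by 2.05 and Cd3e rose by 0.49 (limma adjusted p = 0.00325 and 0.00789). At a limma adjusted p under 0.01, 2.63% of all probe sets fell and 0.797% rose in this comparison. None of these markers passed in DW16 minus DC16 without the narrow-range arrays, where 0 of all 45037 probe sets did. The part of these cells in the Abca1, Lpcat3 and Pltp values was not tested.

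Lpcat3 (chr6:124663094-124704716) places polyunsaturated fatty acids into membrane phospholipids. DW8 mice had 11.81, 11.85, 11.63, 11.72 and 11.72, against a lowest of 11.07, a median of 11.33 and a highest of 11.66 in DC8 mice, which overlapped at 1 DW8 mouse. The difference was 0.38 ± 0.11 (SE). At 16 weeks it was -0.24 ± 0.25 in DW16 minus DC16 and 0.09 ± 0.26 (SE) in EW16 minus EC16, and without the narrow-range arrays 0.49 in D and 0.50 in E mice. After a further quantile normalization it was 0.19 in D mice. Outside those arrays, the DW16 mice had 12.15 and 12.03 and the EW16 mice 11.80, 11.98, 12.19, 11.98 and 11.87, all above every mouse of their chow group (highest 11.79 in DC16 and 11.69 in EC16).

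For Mylip, Nr1h3 and Apoe the size or the sign of the diet difference varied with the comparison, the mice included or the scaling. Mylip (chr13:45389742-45411940) encodes IDOL, the ubiquitin ligase that sends the LDL receptor for degradation, and differed by 0.13 ± 0.09 in DW8 minus DC8, 0.16 ± 0.14 in DW16 minus DC16 (-0.08 without the narrow-range arrays) and 0.13 ± 0.16 (SE) in EW16 minus EC16, with overlap in each and all 45 mice between 11.59 and 12.74. After a further quantile normalization Mylip was higher by 0.57 in DW16 minus DC16 and by 0.38 in EW16 minus EC16. Nr1h3 (chr2:91184061-91202829), the receptor itself, differed by 0.12 ± 0.11 at 8 weeks and by -0.09 ± 0.19 (SE) at 16 weeks in D mice, where it was 0.34 without the narrow-range arrays and 0.23 after a further quantile normalization. In E mice Nr1h3 ran from 7.40 through 7.92 to 8.37 in EW16, against 8.51, 8.63, 8.43, 8.27 and 8.47 in EC16, a difference of -0.54 ± 0.14 (SE), and -0.44 without the narrow-range arrays. Only EW16 mouse 4, at 8.37, lay inside the EC16 range. Apoe (chr7:19696244-19701310) was deleted in every mouse, so no wild-type level is analysed here, and its probe set, at a mean of 7.11, is not known to lie in the deleted part and checks nothing. It differed by 0.64 ± 0.25 in DW8 minus DC8, -0.61 ± 0.22 in DW16 minus DC16 and -0.09 ± 0.16 (SE) in EW16 minus EC16. Leaving out the narrow-range arrays, it differed by -0.20 in DW16 minus DC16 and 0.10 in EW16 minus EC16.

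Counted together, 5 of the 13 probe sets were higher past a limma adjusted p of 0.01 in DW8 minus DC8 (both of Abcg1, both of Gramd1b and 1421840_at of Abca1), where 0.921% of all probe sets were higher and 1.08% passed in either direction. In DW16 minus DC16 it was 2 of 13 (1423570_at and 1435402_at), against 0.797% of all higher and 3.43% in either direction, and 0 of all 45037 without the narrow-range arrays. In EW16 minus EC16 it was 3 of 13 (1423570_at and both of Gramd1b), against 0.271% of all higher and 2.66% in either direction, and 7 of 13 against 7.02% in either direction without the narrow-range arrays, where all 3 probe sets of Abca1 and 1455221_at of Abcg1 were added. The genes were picked with these comparisons known, so nothing is read from the counts. Groups did not overlap for 5, 2 and 2 of the 13, where 2.83%, 3.63% and 4.75% of all probe sets did not. The median difference of the 13 was 0.64 in DW8 minus DC8, -0.09 in DW16 minus DC16 and 0.09 in EW16 minus EC16, and 0.48 in D mice and 0.50 in E mice at 16 weeks without the narrow-range arrays, against medians of all probe sets between -0.02 and 0.06.

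**Figure D2:**
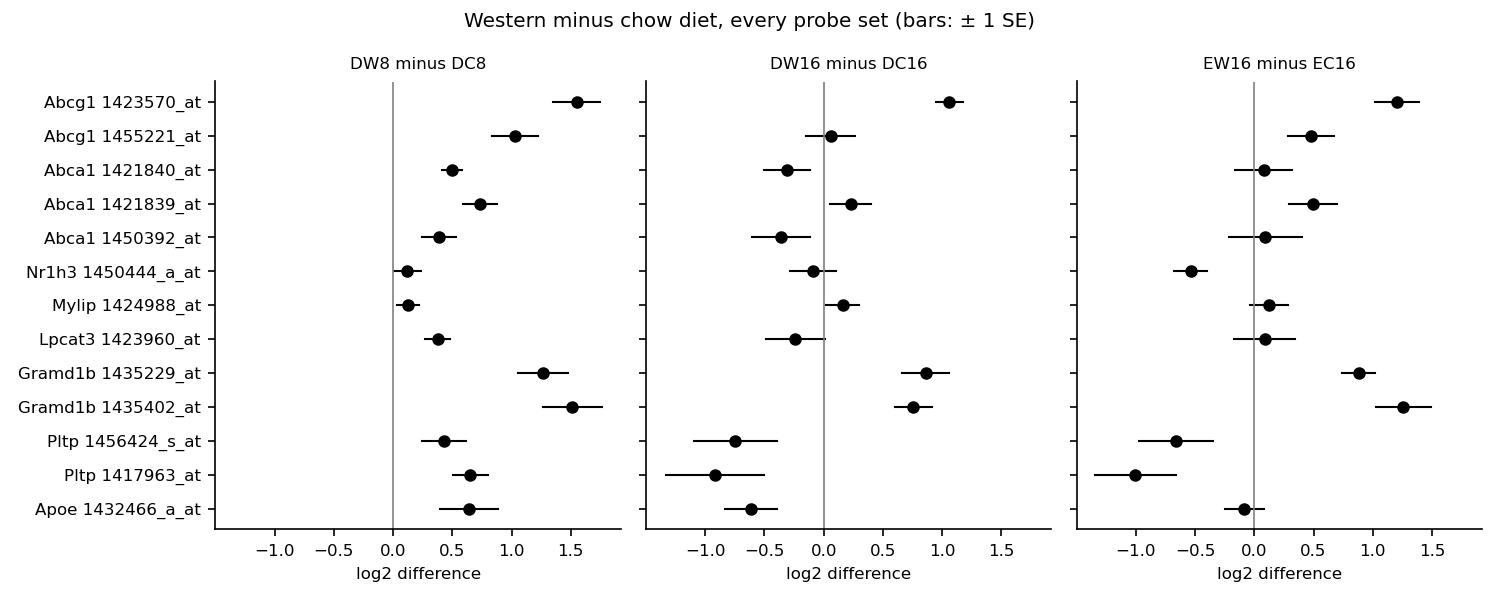
Difference between Western and chow groups (x axis, log2, mean ± 1 SE) for all 13 probe sets, in D mice at 8 weeks, D mice at 16 weeks and E mice at 16 weeks. All 13 points lie above 0 at 8 weeks, whereas at 16 weeks Abcg1 1423570_at and both probe sets of Gramd1b stay at 0.76 or higher and Pltp lies below 0.

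Set beside each other, the diet difference of Abcg1 1423570_at in D mice was smaller at 16 than at 8 weeks by 0.49 ± 0.23 (SE), that of Abca1 1421840_at by 0.81 ± 0.23, and that of Pltp 1417963_at by 1.57 ± 0.49. Without the narrow-range arrays these became changes of -0.31, -0.45 and 0.06. These contrasts are built from the diet differences by which the genes were chosen, so their counts are a description and nothing is read from them. None of the 13 passed the limma threshold for the change in D mice between 8 and 16 weeks, against 0.00444% of all probe sets, and none passed it for the diet difference in D mice minus that in E mice at 16 weeks, where 0% of all did. At an unadjusted p under 0.05 the counts were 10 and 0 of 13, where 27.7% and 6.31% of all probe sets were.

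**Figure D3:**
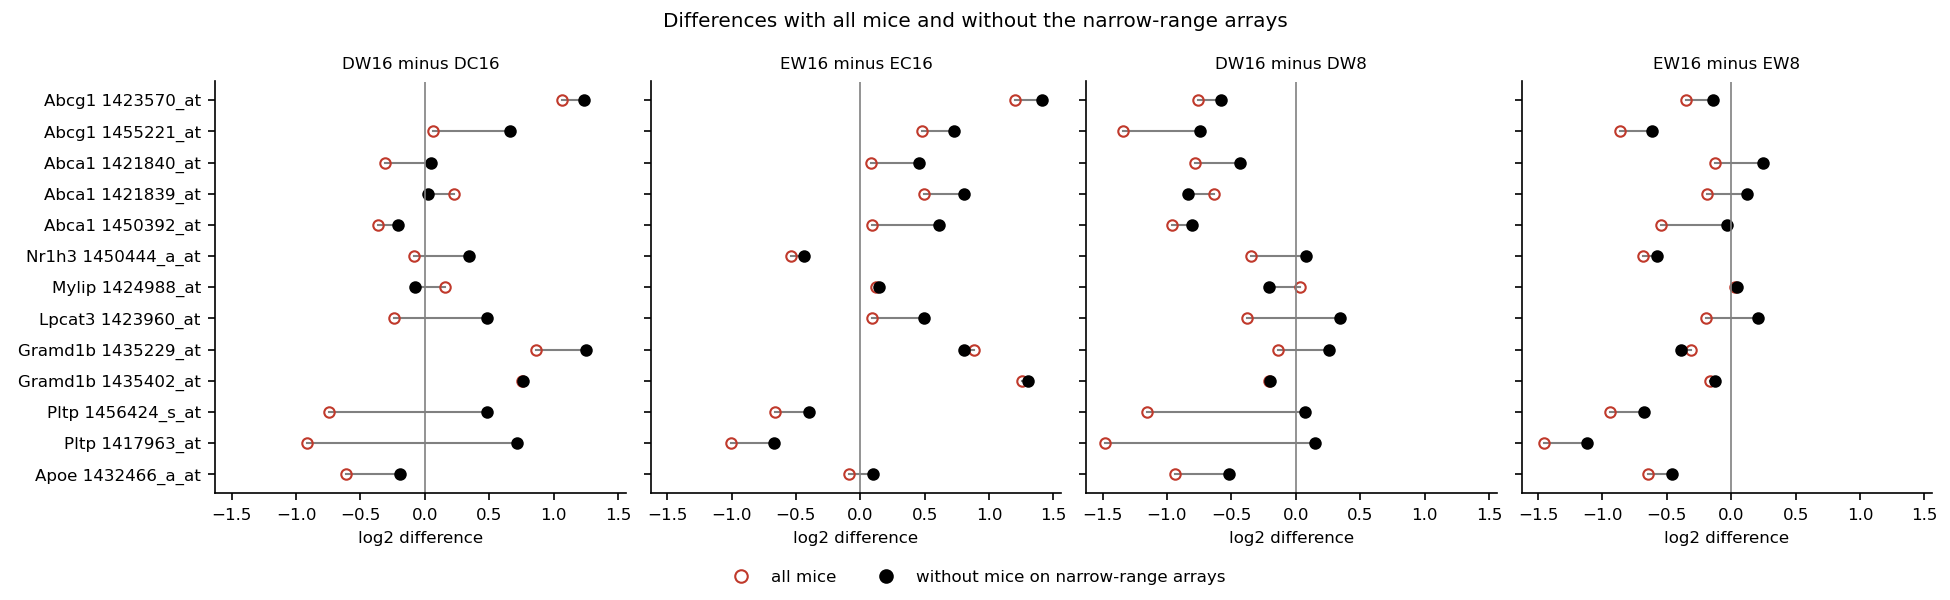
Differences (x axis, log2) of all 13 probe sets with all mice (open red circles) and without the mice on narrow-range arrays (filled black), for the diet comparisons at 16 weeks and the time comparisons on the Western diet. Pltp 1456424_s_at stands at -0.75 with all mice and at 0.48 without those on narrow-range arrays in DW16 minus DC16, while Gramd1b 1435402_at stays at 0.76.

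Genotype, with D set against E mice on the same diet and time, showed no member past the threshold. The genotype comparisons share mice with the diet comparisons by which the genes were chosen. In DW8 minus EW8 the 13 differences ran from -0.12 to 0.32, and 0 of 13 passed in limma, where 0% of all probe sets did. None of the 13 had an unadjusted p under 0.05 either, where 4.13% of all did. Abcg1 1423570_at averaged 11.51 ± 0.35 in DW8 and 11.50 ± 0.44 in EW8 mice (SD), with a 95% interval of the difference from -0.45 to 0.48, and Gramd1b 1435229_at averaged 8.76 ± 0.42 and 8.75 ± 0.50 (SD), with an interval from -0.51 to 0.55. In DC16 minus EC16, 0 of 13 passed in limma, where 0.00222% of all did, and 1 of 13 (Apoe, 0.56 ± 0.22 SE, limma adjusted p = 0.79) had an unadjusted p under 0.05, where 6.27% of all did. Gramd1b 1435402_at was 0.50 ± 0.25 (SE) higher in DC16 mice, with limma adjusted p = 0.792.

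At 16 weeks on the Western diet, DW16 minus EW16, 0 of 13 passed in limma, where 0% of all probe sets did, and 3 of 13 had an unadjusted p under 0.05, where 14.6% of all did. These were both probe sets of Abcg1 and that of Nr1h3. Abcg1 1423570_at averaged 10.76 ± 0.22 in DW16 and 11.15 ± 0.36 in EW16 mice (SD), a difference of -0.39 ± 0.14 (SE, limma adjusted p = 0.258), or 0.76-fold. Within the narrow-range arrays, 7 DW16 against 3 EW16 mice, the difference was -0.09, and outside them, 2 against 5 mice, it was -0.42. Nr1h3 averaged 8.30 ± 0.37 in DW16 and 7.92 ± 0.31 in EW16 mice (SD), a difference of 0.37 ± 0.16 (SE, limma adjusted p = 0.302), the sign opposite to that of the efflux transporters. The 5 EW16 mice outside the narrow-range arrays had Nr1h3 values of 8.37, 7.87, 8.05, 7.92 and 7.92, against 8.64 and 8.81 in the DW16 mice outside them. The change of the genotype difference between 8 and 16 weeks passed the threshold for 0 of 13 in limma (0 of 13 also at an unadjusted p under 0.05, where 6.93% of all probe sets met it), and for Abcg1 1423570_at it was -0.41 ± 0.25 (SE, limma adjusted p = 0.754).

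Time was compared within diet and genotype. These comparisons use the same mice as the diet comparisons by which the genes were chosen and are not independent of that choice. On chow, DC16 minus DC8, 0 of 13 passed in limma, where 0% of all probe sets did. An unadjusted p under 0.05 was met by 2 of 13 (Abcg1 1455221_at, -0.37, and Gramd1b 1435402_at, 0.55), where 8.74% of all met it. On the Western diet in D mice, 3 of 13 probe sets fell in DW16 against DW8, where 4.48% of all probe sets fell, 0.933% rose and 5.41% passed in all. At an unadjusted p under 0.05 it was 8 of 13, where 39.6% of all met it. Abcg1 1423570_at fell by 0.76 ± 0.15 (SE, limma adjusted p = 0.00501), to between 10.34 and 11.09 in DW16 mice, against 11.18 to 12.00 in DW8 mice. Abcg1 1455221_at fell by 1.34 ± 0.22 (SE, limma adjusted p = 0.0032), to between 6.92 and 8.28 in DW16 mice, against 8.46 to 9.43 in DW8 mice. For neither probe set did the groups overlap, as for 4.16% of all probe sets. Abca1 1450392_at fell by 0.96 ± 0.22 (SE, limma adjusted p = 0.00904), to between 4.85 and 6.31 in DW16 mice, against 5.99 to 6.84 in DW8 mice.

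The other members missed the threshold in DW16 minus DW8. Pltp differed by -1.16 ± 0.33 (1456424_s_at) and -1.48 ± 0.41 (1417963_at, SE), with limma adjusted p of 0.0225 and 0.0209, but by 0.07 and 0.15 without the narrow-range arrays. After a further quantile normalization Pltp differed by -0.71 and -1.09 (limma adjusted p = 0.0295 and 0.0313). Apoe differed by -0.94 ± 0.22 (SE, limma adjusted p = 0.011), and by -0.52 without the narrow-range arrays (limma adjusted p = 0.492). Its difference was -0.78 after a further quantile normalization (limma adjusted p = 0.0231). Abca1 1421840_at differed by -0.79 ± 0.19 (SE, limma adjusted p = 0.0124), by -0.43 without the narrow-range arrays (limma adjusted p = 0.303) and by -0.37 after a further quantile normalization (limma adjusted p = 0.0207). Gramd1b stood close to its level at 8 weeks, with differences of -0.13 and -0.21 (limma adjusted p = 0.642 and 0.442), which were 0.22 and 0.14 after a further quantile normalization. Mylip differed by 0.03, by -0.21 without the narrow-range arrays, by -0.03 with arrays centred on their median, and by 0.46 after a further quantile normalization.

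The narrow-range arrays bear on these falls, since 7 of the 9 DW16 and none of the DW8 arrays were of that kind. Without them, with 2 DW16 mice left, the differences of both Abcg1 probe sets and Abca1 1450392_at were -0.58, -0.74 and -0.81 (limma adjusted p = 0.332, 0.30 and 0.391), and 0 of 13 and 0.00222% of all probe sets passed. After a further quantile normalization, Abcg1 1423570_at differed by only -0.28 (limma adjusted p = 0.296). Abcg1 1455221_at and Abca1 1450392_at still passed after it, at -1.05 and -1.01 (limma adjusted p = 0.00588 and 0.00732). The 6 adipocyte markers measured moved alongside, with a mean of 11.47 to 12.86 in DW16 and 12.85 to 13.07 in DW8 mice, and Cidec and Lipe fell (limma adjusted p = 0.00917 and 0.00415). The 12 macrophage markers averaged 8.04 to 8.94 in DW16 and 8.82 to 8.88 in DW8 mice, and of these Mrc1 fell (limma adjusted p = 0.00887). The 6 endothelial markers averaged 7.79 to 9.52 in DW16 and 9.15 to 9.52 in DW8 mice, and Cdh5 fell by 1.23 (limma adjusted p = 0.00357). The 6 stromal markers averaged 8.93 to 10.11 in DW16 and 9.61 to 10.18 in DW8 mice, and Col3a1 fell by 1.24 (limma adjusted p = 0.00692). The 5 mesothelial markers averaged 5.73 to 7.91 in DW16 and 6.80 to 7.95 in DW8 mice, with 0 of 5 past the threshold and a median difference of -1.06. The part of cell mixture and of array range in the falls was not tested.

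In E mice on the Western diet, EW16 minus EW8, 0 of 13 passed in limma, where 1.57% of all probe sets did, and 5 of 13 had an unadjusted p under 0.05, where 30.4% of all did. The lowest adjusted p was 0.0178, for Abcg1 1455221_at (-0.86 ± 0.20 SE) and for Pltp 1417963_at (-1.46 ± 0.34 SE) in limma. Pltp 1417963_at ran from 8.63 through 9.92 to 10.97 in EW16 mice, against 10.66 through 11.04 to 11.98 in EW8 mice. Nr1h3 in EW16 mice stood at 0.62 times its level in EW8 mice, a difference of -0.68 ± 0.16 (SE, limma adjusted p = 0.02). Without the narrow-range arrays, Abcg1 1455221_at differed by -0.62 and Pltp 1417963_at by -1.12 (limma adjusted p = 0.0462 and 0.0352). Nr1h3 differed by -0.58 without them (limma adjusted p = 0.0346). Abcg1 1423570_at differed by -0.35 with all mice and by -0.14 without those arrays (limma adjusted p = 0.641 without them).

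**Figure D4:**
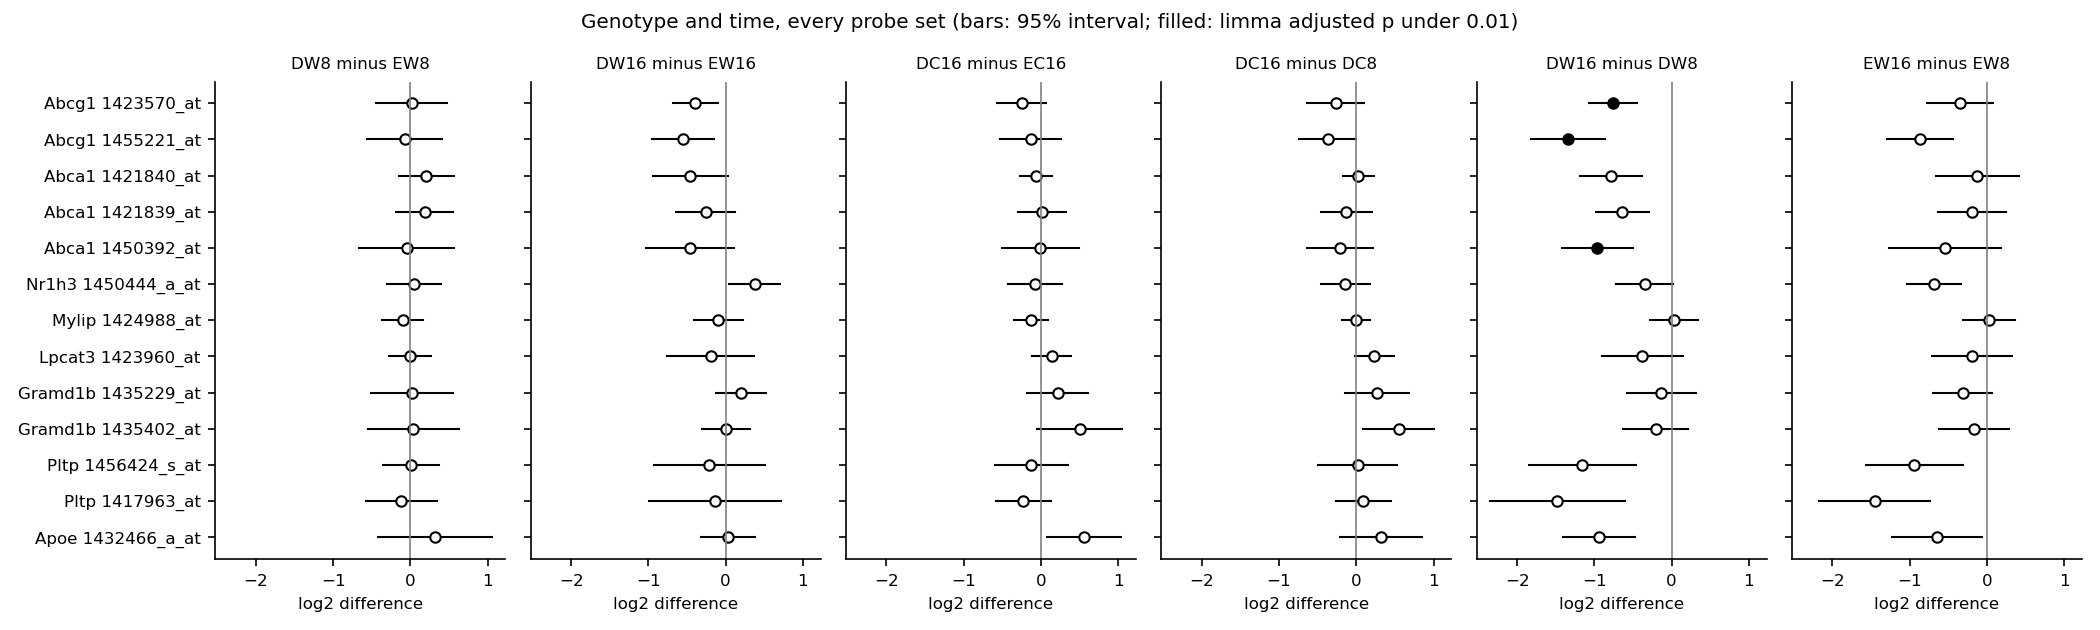
Differences between genotypes and between times (x axis, log2, with 95% interval) for all 13 probe sets, filled where limma's adjusted p was under 0.01. The 3 filled points, both probe sets of Abcg1 and 1450392_at of Abca1, all lie in DW16 minus DW8 at -0.76 or lower.

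The mouse-to-mouse variation inside groups was not used in choosing the genes. Over the 35 mice outside the narrow-range arrays, with each value set against its group mean, the leading probe sets of Abcg1 and Abca1 varied together (Pearson's r = 0.61, permutation adjusted p = 0.00672; Spearman's rho = 0.65, adjusted p = 0.00252, over 28 pairs). With the 2 mice most distant from the Abcg1 median left out, r was 0.522. Abcg1 with Mylip gave r = 0.617 (permutation p = 0.00048, adjusted p = 0.00672; rho = 0.584, adjusted p = 0.0152), and r = 0.516 without its 2 farthest mice. Abca1 with Mylip gave r = 0.546 (permutation p = 0.0022, adjusted p = 0.0154; rho = 0.625, adjusted p = 0.00224), and r = 0.552 without 2 mice. The sign was positive within 5 of the 6 groups with more than 2 such mice for Abcg1 with Abca1 and within 6 of 6 for both pairs with Mylip. As a background, 0.195% of the 45024 other probe sets were as closely tied to Abcg1 as Abca1 was, while 2.09% were as closely tied to Abca1 as Abcg1 was. For Abcg1 with Mylip these shares were 0.173% with Abcg1 and 0.393% with Mylip, and for Abca1 with Mylip 3.75% with Abca1 and 1.17% with Mylip. Gramd1b, whose diet difference was of the size of that of Abcg1, did not clearly follow Abcg1 inside groups (r = 0.257, permutation adjusted p = 0.356; rho = 0.225, adjusted p = 0.373). Nr1h3 was tied to Apoe (r = 0.596, permutation adjusted p = 0.0154; rho = 0.546, adjusted p = 0.0213; r = 0.531 without 2 mice) but not clearly to Abca1 (r = 0.102, adjusted p = 0.732; rho = 0.094, adjusted p = 0.654). The tie of Nr1h3 to Apoe was positive within 4 of 6 groups, and 2.35% of the other probe sets were as closely tied to Nr1h3 and 0.418% to Apoe. Nr1h3 with Gramd1b gave r = 0.425 (permutation adjusted p = 0.076) and rho = 0.461 (permutation adjusted p = 0.0496). With Abcg1, Nr1h3 gave r = 0.33 (permutation adjusted p = 0.158). Mylip with Apoe gave r = 0.531 (permutation adjusted p = 0.0328). Abcg1 with Pltp gave r = 0.467 (permutation adjusted p = 0.0328), but r = 0.211 without 2 mice. Lpcat3 ran opposite to Abcg1 (r = -0.46, permutation adjusted p = 0.076, rho = -0.476, adjusted p = 0.0552). Its r was also negative with Abca1, Mylip, Pltp and Apoe (-0.398 to -0.114, permutation adjusted p of 0.0942 or higher). With Nr1h3 and Gramd1b it was positive (0.256 and 0.095).

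**Figure D5:**
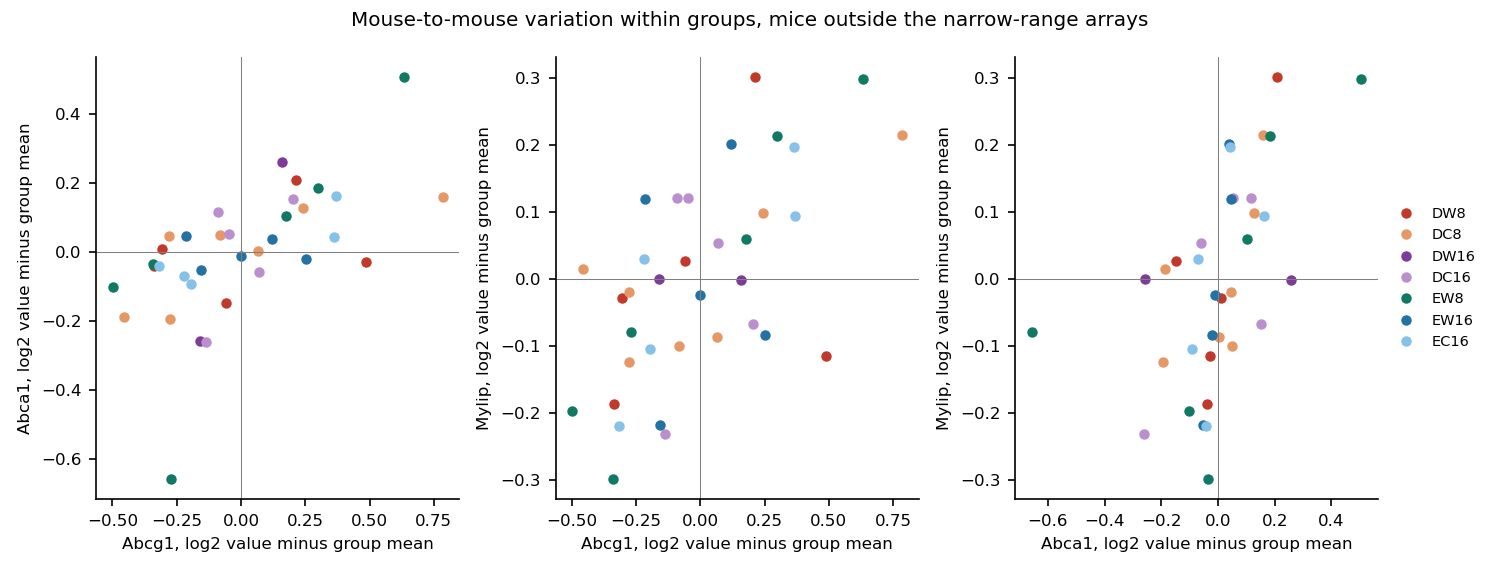
Each point is 1 of the 35 mice outside the narrow-range arrays, coloured by group, with its log2 value minus the group mean for Abcg1 or Abca1 on the x axis and for Abca1 or Mylip on the y axis. The points of the Abcg1 and Abca1 panel rise together (r = 0.61), with 1 EW8 mouse far below the others on Abca1.

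Over the same 35 mice with the group differences left in, the genes whose levels were most like Abcg1 1423570_at were Rnf122 (r = 0.827), Klf7 (0.824), Slfn8 (0.824), Klf6 (0.822) and Ypel2 (0.818), with 0.62 to 0.776 over all 45 mice. Those most like Abca1 1421840_at were Itsn2 (r = 0.881), Med14 (0.88), Wasl (0.877), Zswim6 (0.876) and Smchd1 (0.874), none of them a member. Those most like Gramd1b 1435229_at were Apod (r = 0.77), Abcg1 (0.769), Washc4 (0.763), Apoc1 (0.754) and Ypel2 (0.751). Abcg1 was thus the only member among the genes listed, and Apoc1 is an apolipoprotein gene beside Apoe that LXR is known to regulate. Other members came close to the list of Abcg1 1423570_at, with r = 0.816 for Abca1 1421839_at and 0.78 for Gramd1b 1435402_at. These mice share diet and genotype by group, and the correlations are a description with no test.

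Of 61 other genes of the pathway, 50 had a probe set, and none rose in any comparison of all mice under limma. In DW8 minus DC8, where 1.08% of all probe sets passed, none of the 50 did. Those closest to the threshold were Ncoa2, a receptor coactivator (0.52, limma adjusted p = 0.0154), Apoc1 (0.83, limma adjusted p = 0.0223), Abca7, a relative of Abca1 (-0.47, limma adjusted p = 0.0282), and Ch25h, which makes an oxysterol (-0.53, limma adjusted p = 0.0297). The median over the 50 was -0.05, against -0.02 over all probe sets. Among 14 measured other LXR targets, which include the lipogenic genes Srebf1, Scd1 and Fasn, the median was 0.04 in DW8 minus DC8, -0.36 in DW16 minus DC16 and 0.09 in EW16 minus EC16, and 0 passed in each.

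At 16 weeks the genes that passed all fell. In DW16 minus DC16 these were 3 of 50, against 2.63% of all probe sets that fell: Rxra, the partner receptor of LXR (-0.94, limma adjusted p = 0.00549), Nrip1, a corepressor (-1.17, limma adjusted p = 0.00954), and Npc1, which exports cholesterol from lysosomes (-0.87, limma adjusted p = 0.00789). Without the narrow-range arrays they differed by -0.29, -0.28 and -0.58 (limma adjusted p = 0.61, 0.743 and 0.448), and 0 of 50 passed, where 0 of all 45037 probe sets did. After a further quantile normalization Rxra and Nrip1 still passed, at -0.57 and -0.75 (limma adjusted p = 0.00471 and 0.00797). Npc1 then differed by -0.74 (limma adjusted p = 0.0162). In EW16 minus EC16, 1 of 50 fell, against 2.39% of all, namely Rxrg, another retinoid X receptor, by 0.62 (limma adjusted p = 0.00901), and by 0.64 without the narrow-range arrays (limma adjusted p = 0.00632). Mboat7, Osbp and Rxrg passed there without those arrays, with 1 higher and 2 lower, where 7.02% of all probe sets passed. After a further quantile normalization Rxrg differed by -0.43 (limma adjusted p = 0.106).

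In DW16 minus DW8, 5 of 50 fell, against 4.48% of all. They were Lrp1, a lipoprotein receptor (-1.67, limma adjusted p = 0.00549), Nrip1 (-1.33, limma adjusted p = 0.00467), Lipa, the lysosomal acid lipase (-1.12, limma adjusted p = 0.00474), Smpdl3a, a phosphodiesterase gene regulated by LXR (-1.02, limma adjusted p = 0.00388), and Npc1 (-0.84, limma adjusted p = 0.00625). Without the narrow-range arrays their differences lay between -0.31 and -0.55 and 0 of 50 passed, where 0.00222% of all probe sets did. After a further quantile normalization 4 of 50 still fell, namely Lrp1, Nrip1, Lipa and Smpdl3a (limma adjusted p of 0.00483 or lower). Npc1 then differed by -0.72 (limma adjusted p = 0.015). None of the 50 passed in DW8 minus EW8, DW16 minus EW16, DC16 minus EC16, DC16 minus DC8 or EW16 minus EW8 under limma.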

How the data were processed

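Adipocyte RNA of 45 mice was measured on Affymetrix MG430-2.0 arrays, 1 per mouse. The deposited values are log2 expression values that the authors made with RMA (background correction, quantile normalization and summary per probe set); its version is not given in the sources used here, nor whether all arrays were normalized together. All 45 columns were used (0 left out), as deposited, with no further filter. Probe sets were named from the platform annotation: 34945 had 1 symbol, 932 several and 9160 none, and only those with 1 symbol were named. A gene's leading probe set has the highest mean over all mice, and lists of other genes used that probe set. Members, lists and tests were chosen with earlier results of these data known. All probe sets named for a member are reported, pathway genes where past the threshold or closest to it, and for likeness the 5 genes of highest correlation.

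Groups were compared 2 at a time with limma 3.58.1 (lmFit and eBayes, R 4.3.3) on all 45037 probe sets, with Benjamini-Hochberg adjustment and a threshold of 0.01, after the study's methods; differences between differences were fitted as contrasts over their groups. The SAM test that the methods also name was not run. The fit was tested on simulated data. Correlations used SciPy 1.17.1, with 100000 permutations of mice inside groups. P-values measure the spread between mice, each hybridized once, and the number of arrays limits the precision. Alternatives were other scalings, moderation, array weights, filters, a replicate block, leaving out each mouse, and the narrow-range arrays left out, blocked or held by the SD of each array.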

Additional observations from a re-analysis of the deposited data

Results flagged for a closer look

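In 5 of 91 groups of values tested (13 probe sets in 7 groups), 1 mouse lay far from the rest, where chance flags about 1 in 20. Abcg1 1455221_at was 8.60 in DC8 mouse 3, against 7.65 to 8.06 in the other DC8 mice, and Pltp 1456424_s_at was 12.98 in the same mouse, against 11.64 to 12.17. In DC16 mouse 4, Abca1 1450392_at was 4.81, against 5.82 to 6.20 in the other DC16 mice, and Nr1h3 was 7.72, against 8.43 to 8.64. Abca1 1421839_at was 6.39 in DW16 mouse 9, against 6.94 to 7.47 in the other DW16 mice.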

How the results depend on the processing

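Counts of member probe sets past limma's threshold are given here, each out of 13. The replicate block kept only mice whose replicate number occurred in every group compared. Where DW16 was set against DC16 or DW8, it therefore used only DW16 mice 1 to 5. All of these were on narrow-range arrays, so its counts there rest on fewer mice as well as on the block. In DW8 minus DC8 (5) the replicate block left 1. In DW16 minus DC16 (2), array weights and the replicate block gave 5 each, leaving out the narrow-range arrays or blocking on them gave 0, and a covariate holding each array's SD gave 1. In EW16 minus EC16 (3) the replicate block gave 0, array weights 6, leaving out the narrow-range arrays 7 and blocking on them 6. In DW16 minus DW8 (3), 8 passed in 1 fit over all 7 groups, with array weights or at an adjusted p of 0.05, 7 with the replicate block, 6 with arrays centred on their median, 5 among probe sets above the median level, and 0 without, or blocked on, the narrow-range arrays or with the SD covariate. In EW16 minus EW8 (0), 3 passed in 1 fit over all 7 groups, with array weights or at 0.05. Array weights also gave 4 in DW16 minus EW16 (0), 2 for the diet difference in D minus E mice (0) and 1 for the genotype difference at 16 minus 8 weeks (0), and for the diet difference at 16 minus 8 weeks in D mice (0) array weights and the replicate block gave 6 each and the threshold of 0.05 gave 2. The causes were not tested. No called value changed sign.

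Leaving out each mouse in turn gave 1 to 7 in DW8 minus DC8 (1 without DW8 mouse 1, 2 or 3, or DC8 mouse 4 or 7; 2 without DC8 mouse 5; 3 without DC8 mouse 2), 1 to 3 in DW16 minus DC16 (1 without any of DW16 mice 1 to 6 or DC16 mice 1, 2, 3 or 5), 0 to 4 in EW16 minus EC16 (0 without EC16 mouse 1, 2 or 4, and 1 without EC16 mouse 3), 0 to 8 in DW16 minus DW8 (0 without DW8 mouse 1, 2 or 3, and 8 without DW16 mouse 8 or 9), 0 to 2 in EW16 minus EW8 (2 without EW16 mouse 4) and 0 to 2 for the diet difference at 16 minus 8 weeks in D mice (2 without DW16 mouse 8, 1 without mouse 9). It gave 0 throughout in the other comparisons. The block joins mice by replicate number, and whether same-numbered mice were paired is not known from the labels. In no comparison did every pair's deviations correlate above 0.1. Such pairs were 0 of 5 in DW8 minus DC8, 2 of 5 in EW16 minus EC16, 3 of 5 in DC16 minus EC16 and 5 of 8 in DW16 minus EW16. In EW16 minus EC16, 3 of 5 EW16 mice correlated best with the EC16 mouse of their own number, and in DW16 minus DW8 0 of 5 did.

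A further quantile normalization moved the share of calls that were higher to 47.9% of 1446 in DW16 minus DC16 (23.2% of 1545 as deposited), 36.1% of 1187 in EW16 minus EC16 (10.2% of 1200), 48.8% of 2479 in DW16 minus DW8 (17.2% of 2436) and 25% of 416 in EW16 minus EW8 (9.07% of 706). Only 2 DW16 mice lie outside the narrow-range arrays, so the comparisons without them have little power for D mice, and a difference missed there is not shown to be absent.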
